A study of Mus musculus with 21 samples.

Results

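Gene expression was compared between primary mouse B cell precursors transduced with the oncogene C-MYC and B cell precursors transduced with the empty vector (EV). The comparison was defined by the sample labels alone and holds 4 RNA sequencing libraries, 2 of C-MYC and 2 of EV, out of 21 samples in the series. Of the 24421 gene symbols in the count table, the 12786 that passed a filter on low counts were tested. A further 2 libraries of cells transduced with BCR-ABL1, the fusion kinase of B cell leukemia, entered the same model and are given beside C-MYC where they help to place a value.

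All cultures came from total bone marrow of 53BP1-/- C57BL/6 mice, so the EV cells also lack the DNA repair factor 53BP1. The marrow was grown with interleukin-7 (IL-7) and infected on days 2 and 3 of culture with MIGR1 retrovirus, which carried mouse C-MYC in the C-MYC cultures, human BCR-ABL1 in the BCR-ABL1 cultures and no oncogene in EV. Cells were harvested 7 to 9 days after transduction. The methods describe the removal of dead cells but, for these cultures, no selection of B cells or of infected cells, so each library holds every cell type that remained in the dish, infected or not. The methods describe RNA from duplicate experiments, but neither they nor the labels tie a replicate to a mouse. The p-values therefore measure the spread between these libraries only.

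MYC is a transcription factor that pairs with MAX and binds the DNA sequence CACGTG, called an E-box, at promoters. It is known for raising genes of ribosome production, protein synthesis, nucleotide synthesis and energy metabolism, and deregulated MYC drives lymphoma and leukemia of B cells. B cell precursors depend on IL-7, whose receptor signals through JAK1, JAK3 and STAT5, and on the pre-B cell receptor, which signals through SYK, LYN and BLNK. When IL-7 signaling declines, the precursors stop dividing and turn on Rag1 and Rag2, the recombinase that assembles the immunoglobulin light chain.

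The 4 libraries of C-MYC and EV held between 20687092 and 23038828 counts, of which the 10 most abundant genes made up 4.07% to 5.28%. Levels are given as CPM, the counts of a gene per 1e6 counts of the library, after scaling of library sizes by edgeR's TMM method. They are relative to the rest of each library, since no spike-in RNA was described, and cannot show a change in the total RNA per cell. The spread between replicates exceeded sampling noise, the chi-square statistic over its degrees of freedom being 35.5 for EV and 15.8 for C-MYC. How the authors' counting treated strand is not given in the sources used here, so the counts of overlapping genes and of near-identical paralogs are uncertain.

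Myc was first checked against the labels. On chromosome 15 of GRCm38 from 61985391 to 61990374, it had 181 and 137 CPM in EV, 1743 and 1233 in C-MYC and 343 and 348 in BCR-ABL1. Both C-MYC libraries lay far above both EV libraries, with a log2 fold change of 3.23 (SE 0.20, edgeR quasi-likelihood test, adjusted p = 0.000175). The vector carries the mouse sequence, so the counts do not separate its transcript from that of the cells' own gene.

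Of the 12786 genes tested, 2383 (18.6%) were higher and 3132 (24.5%) were lower in C-MYC than in EV at an adjusted p below 0.05, and 7271 had no call. Rises were mostly small and falls were often large. The median log2 fold change was 0.73 among genes called higher and -1.24 among genes called lower, and 616 genes rose whereas 1890 fell by at least 2-fold. At 8-fold or more the counts were 27 and 480. Genes called higher took 30.5% and 32.2% of all counts in EV and 46.1% and 46.5% in C-MYC, while genes called lower took 24.4% and 22.7% in EV and 12% and 11.7% in C-MYC. For every gene called, the C-MYC libraries did not overlap with the EV libraries, which held for 31.5% of all genes tested in the higher and for 39.1% in the lower direction. The call counts depended on having both C-MYC libraries. Without C-MYC replicate 1 there were 1431 higher and 1898 lower genes, and without C-MYC replicate 2 there were 1592 and 1971. Against a required fold of 1.5, edgeR's glmTreat called 677 genes higher and 1595 lower.

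**Figure D1:**
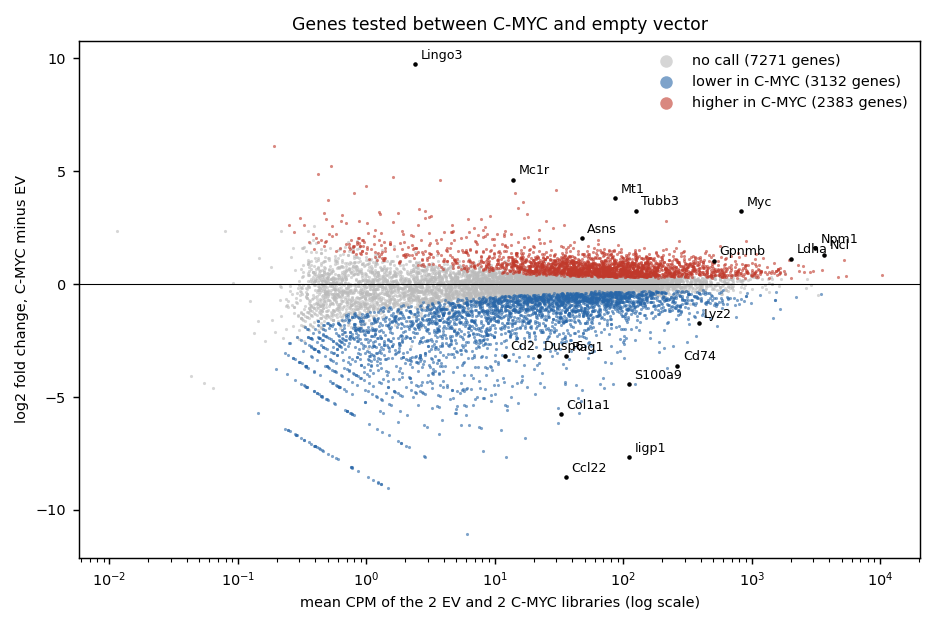
Log2 fold change of C-MYC minus EV (vertical) against the mean CPM of the 4 libraries (horizontal, log scale) for the 12786 genes tested, with genes called higher in red, genes called lower in blue and other genes in grey. Called falls reach farther from 0 than called rises, apart from Lingo3, and the diagonal lines of points at low CPM are genes with 0 or few counts in C-MYC.

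Among genes with at least 50 counts on average, the 12 with the largest rises included Myc itself. Lingo3, a member of a family of leucine-rich repeat membrane proteins, had no count in either EV library and 5.47 and 4.09 CPM in C-MYC, which is at least 36-fold higher when 3 counts per library are allowed for EV. Mc1r, the receptor for melanocyte-stimulating hormone, rose from 0.795 and 1.34 to 26.02 and 27.5 CPM, and Tubb3, a neuronal beta-tubulin, rose from 18.4 and 28.7 to 246.6 and 203.7 CPM. These genes are neighbours on the same strand of chromosome 8 with 679 bases between them, and a further annotated gene, Gm20388, overlaps both, so reads of a shared transcript may have been counted for either. Mt1, a metallothionein that binds zinc and copper, rose from 11.97 and 11.08 to 190.7 and 132.6 CPM. Adarb1, an enzyme that edits adenosine in RNA, rose from 2.20 and 2.68 to 32.3 and 28.7 CPM. Ankrd13b, Ctsk, Dnajc6, Gls2, Arhgdig and Glt1d1 completed the group, with log2 fold changes between 3.22 (Glt1d1) and 4.62 (Arhgdig). Of these, Gls2, Arhgdig and Glt1d1 each overlap a gene on the opposite strand. Ctsk, the collagen-cleaving cathepsin of osteoclasts and macrophages, was at 0.795 and 2.47 CPM in EV, 22.1 and 32.2 in C-MYC and 0.427 and 1.12 in BCR-ABL1.

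The 12 largest falls were taken from genes outside the lists of non-B cell markers. Gm4841, Iigp1, Gm4951 and F830016B08Rik, all on chromosome 18, belong to or lie beside the interferon-inducible GTPases. Iigp1 had 390 and 49.5 CPM in EV, 0.322 and 1.80 in C-MYC and 10.6 and 7.94 in BCR-ABL1. Gm4841 had 21.6 and 2.47 CPM in EV and no count in C-MYC, a fall of at least 88.4-fold. Ccl22, a chemokine of dendritic cells and macrophages, had 118.6 and 23.1 CPM in EV and 0.138 and 0.225 in C-MYC, and Fscn1, the actin-bundling protein of mature dendritic cells, had 39.2 and 9.03 against 0.138 and 0.0898. Gzmc, a granzyme of cytotoxic lymphocytes, and Apol7c, an apolipoprotein L gene, were also among them. Tnc, Col12a1, Cald1 and Cyp1b1, which are typical of fibroblasts and other stromal cells, made up the rest, with Tnc at 4.63 and 7.06 CPM in EV and 0.0919 and 0.0449 in C-MYC. The EV libraries themselves differed for these genes. EV replicate 1 was above EV replicate 2 by a log2 ratio of 2.04 to 3.08 for Ccl22, Fscn1, Gzmc and the 4 genes of chromosome 18, and below it by 0.60 to 0.90 for Tnc, Col12a1, Cald1 and Cyp1b1.

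Most members of the lists for making ribosomes and proteins rose, although only 526 of all 2383 rises were on any of the 44 lists. Of 113 tested genes for ribosome biogenesis and RNA polymerase I, 103 rose and 0 fell, with a median log2 fold change of 0.94 against -0.08 for all genes tested. Here and below, a list with 0 calls in a direction had at most 2 members in that direction at an unadjusted p below 0.05 and 0 by DESeq2, where edgeR's quasi-likelihood test gave the count, and at most 2 called when 1 library was left out. Summed over the list, the level was 13000 and 14840 CPM in EV, 30620 and 29680 in C-MYC and 17360 and 18350 in BCR-ABL1. Npm1, which encodes the nucleolar chaperone nucleophosmin, had 1428 and 1693 CPM in EV and 4735 and 4615 in C-MYC (log2 fold change 1.58, SE 0.11, adjusted p = 0.000175). Ncl, which encodes nucleolin, had 1902 and 2319 CPM in EV and 5181 and 5219 in C-MYC. Fbl, the methyltransferase fibrillarin, rose from 226 and 260 to 531 and 572 CPM. Nop56, another core protein of box C/D small nucleolar particles, rose from 207 and 281 to 449 and 496 CPM, and Lyar, a nucleolar protein of ribosomal RNA processing, rose from 92.5 and 124 to 322.1 and 322.6 CPM. None of these named genes overlapped between the groups, and for each of them the C-MYC libraries lay closer together in ratio than the EV libraries.

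Cytosolic ribosomal protein genes moved by less. Of 78 tested, 69 rose and 0 fell, at a median of 0.52 on the log2 scale and a summed level of 64110 and 61500 CPM in EV against 91720 and 86490 in C-MYC. Rps2 rose from 1669 and 1610 to 3011 and 2911 CPM (log2 fold change 0.85, SE 0.09, adjusted p = 0.000524), and Rplp0, the stalk protein of the large subunit, rose from 2422 and 2204 to 3408 and 3242 CPM. Ribosomal protein genes have many processed pseudogenes, so their counts can be split by the counting step. Of 77 mitochondrial ribosomal protein genes, 62 rose and 0 fell (median 0.58), or 37 without C-MYC replicate 1. Mrpl12, which also binds the mitochondrial RNA polymerase, rose from 84.3 and 99.02 to 224 and 196 CPM.

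Of 60 translation factor genes, 42 rose and 3 fell, with a median of 0.61. Eif4e, the cap-binding protein, rose from 141 and 138 to 279 and 269 CPM, and Eif4a1, the helicase that works beside it, rose from 797 and 835 to 1425 and 1490 CPM. Eif2b3, a subunit of the exchange factor that recharges eIF2, rose most in the list, from 14.4 and 21.6 to 60.2 and 58.7 CPM (log2 fold change 1.72, SE 0.20, adjusted p = 0.000653). Eif4e3, a relative of Eif4e, fell from 78.3 and 66.04 to 40.95 and 40.77 CPM, and Eif2ak3, the eIF2 kinase PERK of the unfolded protein response, fell from 214 and 133 to 105 and 93.4 CPM, a call that was lost without either C-MYC library. The third gene that fell, Eif2s3y, a subunit of eIF2, lost its call when any of 3 libraries was left out. Eif2s3y lies on chromosome Y, and the methods do not give the sex of the mice. Among 40 aminoacyl-tRNA synthetases and their partners, 30 rose and 0 fell (median 0.75). Eprs, the glutamyl-prolyl enzyme, rose from 204 and 258 to 449 and 485 CPM, and Farsb, a subunit of the phenylalanyl enzyme, rose from 56.7 and 76.4 to 145 and 138 CPM.

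The promoters of these genes were read for the E-box. RefSeq promoter windows of GRCm38.p6, from 250 bases before to 50 bases after an annotated start, were matched by symbol for 9714 of the genes tested, with 12357 windows in all. The letters CACGTG, which read the same on both strands, occurred in 14.2% of the 2233 windows of genes called higher, in 9.79% of the 7018 windows of genes without a call and in 6.95% of the 3106 windows of genes called lower. Over the whole promoter table the share was 7.15%. Hexamers of the same base composition around a central CG served as a reference, and their matches can overlap an E-box match by no more than an end letter. GACGTC has the same central letters, ACGT, as the E-box and is therefore not unrelated to it. GACGTC occurred in 9.36%, 7.84% and 4.96% of these windows, and CTCGAG in 7.57%, 5.44% and 4.96%. The median GC content was 61.0%, 60.7% and 59.0%. All 3 hexamers were thus more frequent in windows of genes called higher than in those of genes called lower. The E-box occurred in 16.2% of the 111 windows of ribosome biogenesis genes and 21% of the 62 windows of translation factors, but in 11.8%, 9.46% and 8.96% of those of cytosolic ribosomal proteins, mitochondrial ribosomal proteins and oxidative phosphorylation subunits and 4.76% of those of chaperonins, against 9.87% for all genes tested. It was also in 34.1% of the 41 windows of the lysosomal list described below, of which more genes fell than rose. GACGTC was in 14.4% of the windows of ribosome biogenesis genes. The E-box was in 0 of the 38 windows of interferon-stimulated genes. In those windows GACGTC was in 2.63% and CTCGAG in 0%, and the median GC content was 53.0%, against 60.3% for all genes tested. The windows of the neutrophil, stromal and MHC class II lists also held 0 E-boxes. A match describes letters in a window and not a bound site.

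Of the genes named here, 5 that rose are shown with the 250 bases before an annotated start. The bases run 5' to 3' on the strand of the gene, in lower case with each E-box in capitals. These genes were picked for holding an E-box there and illustrate how its number and place vary. Of the 1857 genes called higher with a promoter window, 15.9% had an E-box in any window. Lingo3 and Ldha have 2 windows each and Eif5a has 6, of which 1 with an E-box is shown. The 5 genes are the gene with the largest rise, a glycolytic enzyme, a helicase and the hypusinated factor of translation, and a tRNA synthetase subunit. The E-box begins 91 bases before the start in Lingo3 (chr10:80844040-80844289, minus strand), 145 and 48 bases before it in Ldha (chr7:46845554-46845803, plus strand), 189 in Eif4a1 (chr11:69672424-69672673, minus strand), 74 in Eif5a (chr11:69921387-69921636, minus strand) and 39 in Farsb (chr1:78488898-78489147, minus strand).
Lingo3: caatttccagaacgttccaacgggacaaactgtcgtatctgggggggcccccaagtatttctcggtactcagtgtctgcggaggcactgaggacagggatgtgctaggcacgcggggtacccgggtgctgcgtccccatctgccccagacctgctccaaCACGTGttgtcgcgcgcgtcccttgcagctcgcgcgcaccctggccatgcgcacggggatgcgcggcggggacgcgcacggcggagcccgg
Ldha: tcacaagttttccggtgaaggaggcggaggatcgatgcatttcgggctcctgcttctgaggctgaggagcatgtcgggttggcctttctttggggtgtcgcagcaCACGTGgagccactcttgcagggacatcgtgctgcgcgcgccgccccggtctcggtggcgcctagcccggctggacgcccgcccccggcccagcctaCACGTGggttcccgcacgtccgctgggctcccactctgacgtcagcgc
Eif4a1: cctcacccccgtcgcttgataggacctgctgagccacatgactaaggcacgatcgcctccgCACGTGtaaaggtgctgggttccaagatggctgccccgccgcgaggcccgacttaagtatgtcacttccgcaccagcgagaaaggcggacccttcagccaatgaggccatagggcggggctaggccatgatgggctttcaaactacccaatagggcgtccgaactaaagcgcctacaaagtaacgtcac
Eif5a: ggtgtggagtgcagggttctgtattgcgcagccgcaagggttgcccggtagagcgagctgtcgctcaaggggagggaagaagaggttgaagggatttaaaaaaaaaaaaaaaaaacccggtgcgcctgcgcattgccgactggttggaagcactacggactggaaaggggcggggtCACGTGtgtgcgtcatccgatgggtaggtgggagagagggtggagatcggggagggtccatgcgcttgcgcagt
Farsb: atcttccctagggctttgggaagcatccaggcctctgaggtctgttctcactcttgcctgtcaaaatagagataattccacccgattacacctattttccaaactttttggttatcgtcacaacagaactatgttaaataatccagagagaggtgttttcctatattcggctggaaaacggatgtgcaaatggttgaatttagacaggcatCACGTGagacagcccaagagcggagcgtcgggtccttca

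Of 40 genes for nucleotide and one-carbon synthesis, 32 rose and 0 fell, with a median of 0.86. Cad, which starts pyrimidine synthesis, rose from 175 and 242 to 461 and 524 CPM, and Gart and Ppat, which act early in purine synthesis, rose from 139 and 177 to 426.5 and 432.5 CPM and from 95.03 and 103 to 259.8 and 262.5 CPM. Impdh2, the limiting enzyme of guanine nucleotide synthesis, rose from 242 and 275 to 516 and 508 CPM. In the polyamine pathway, 8 of 14 genes rose (57.1%, against 18.6% of all genes tested) and 2 fell (14.3%, against 24.5%). Srm, which makes spermidine, rose from 102 and 124 to 468 and 387 CPM (log2 fold change 1.92, SE 0.15, adjusted p = 0.000247), and Odc1, the rate-limiting ornithine decarboxylase and a textbook MYC target, rose from 365 and 345 to 721 and 742 CPM. Eif5a, the only protein known to be modified with the spermidine-derived residue hypusine, rose from 1289 and 1200 to 2899 and 2370 CPM. The share of falls was below that of all genes tested. The lowest log2 fold change on the list, -0.95, belonged to a gene without a call. Both genes called lower act against polyamines. Sat1, which acetylates them for export, went from 52.6 and 47.3 to 23.5 and 36.1 CPM, with the call lost without C-MYC replicate 1, and Oaz2, an antizyme, from 49.3 and 46.9 to 35.9 and 37.7 CPM, a small change whose call was lost without any of 3 libraries and under DESeq2.

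Of 22 chaperonin and chaperone genes, 20 rose and 0 fell, the highest median of any list (0.99). Hspd1 and Hspe1, the mitochondrial chaperonin and its lid, which share a promoter region on chromosome 1, rose from 319 and 445 to 1364 and 1498 CPM and from 97.1 and 113 to 264 and 339 CPM. Amino acid transporters were split, with 6 of 18 higher and 5 lower, or 1 lower without C-MYC replicate 1. With all libraries, 33.3% of the transporters were higher and 27.8% lower, against 18.6% and 24.5% of all genes tested. Slc7a5 and Slc3a2, the subunits of the large neutral amino acid carrier LAT1, rose from 212 and 197 to 531 and 414 CPM and from 143 and 137 to 249 and 208 CPM. Slc43a2, another carrier of neutral amino acids, fell from 79.8 and 132 to 37.8 and 53.3 CPM, with its call lost without C-MYC replicate 1. In the list of ATF4 targets and serine synthesis, 11 of 22 rose and 4 fell, or 2 fell without C-MYC replicate 1 and likewise without C-MYC replicate 2. Asns, asparagine synthetase, rose from 17.2 and 19.8 to 83.4 and 69.5 CPM with 19.5 and 20.9 in BCR-ABL1 (log2 fold change against EV 2.05, SE 0.15, adjusted p = 0.000194), and Phgdh, the first enzyme of serine synthesis, rose from 281 and 278 to 542 and 554 CPM. Atf4 itself had 278 and 382 CPM in EV and 358 and 277 in C-MYC, which overlap.

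In glycolysis and the pentose phosphate pathway, 17 of 33 genes rose and 4 fell, or 2 and 1 fell without C-MYC replicate 1 and 2. Ldha, lactate dehydrogenase A, had 1333 and 1214 CPM in EV, 3053 and 2504 in C-MYC and 1244 and 1296 in BCR-ABL1 (log2 fold change against EV 1.13, SE 0.12, adjusted p = 0.000489). Hk2, the inducible hexokinase, rose from 24.5 and 44.01 to 84.02 and 109.5 CPM, and Pgam1, phosphoglycerate mutase, rose from 84.4 and 93 to 198 and 191 CPM. Hk3, the hexokinase of myeloid cells, fell from 20.99 and 28.09 to 6.34 and 15.1 CPM, beside the lower myeloid markers given below, and lost its call without EV replicate 2 or C-MYC replicate 1. Of 76 nuclear-encoded subunits of oxidative phosphorylation, 41 rose and 0 fell (median 0.34), or 22 and 26 without C-MYC replicate 1 and 2. Atp5b, the catalytic subunit of ATP synthase, rose from 1234 and 1252 to 2110 and 1987 CPM. Lipid synthesis stood apart from this pattern: 6 of 35 genes rose (17.1%, against 18.6% of all genes tested) and 1 fell, or 2 and 3 fell without EV replicate 1 and 2. Fasn, fatty acid synthase, rose from 276 and 377 to 539 and 584 CPM. Lysosomal genes went the other way, with 3 of 43 higher and 22 lower, or 14 lower without C-MYC replicate 1. With all libraries, 51.2% were lower and 6.98% higher, against 24.5% and 18.6% of all genes tested. The list summed to 7135 and 7690 CPM in EV, 4491 and 5730 in C-MYC and 4817 and 4860 in BCR-ABL1. Its median log2 difference of C-MYC minus BCR-ABL1 was -0.03, and the part of non-B cells in the fall was not tested. Laptm5, a lysosomal protein of blood cells that lowers surface antigen receptors, fell from 1008 and 662 to 257 and 206 CPM.

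**Figure D2:**
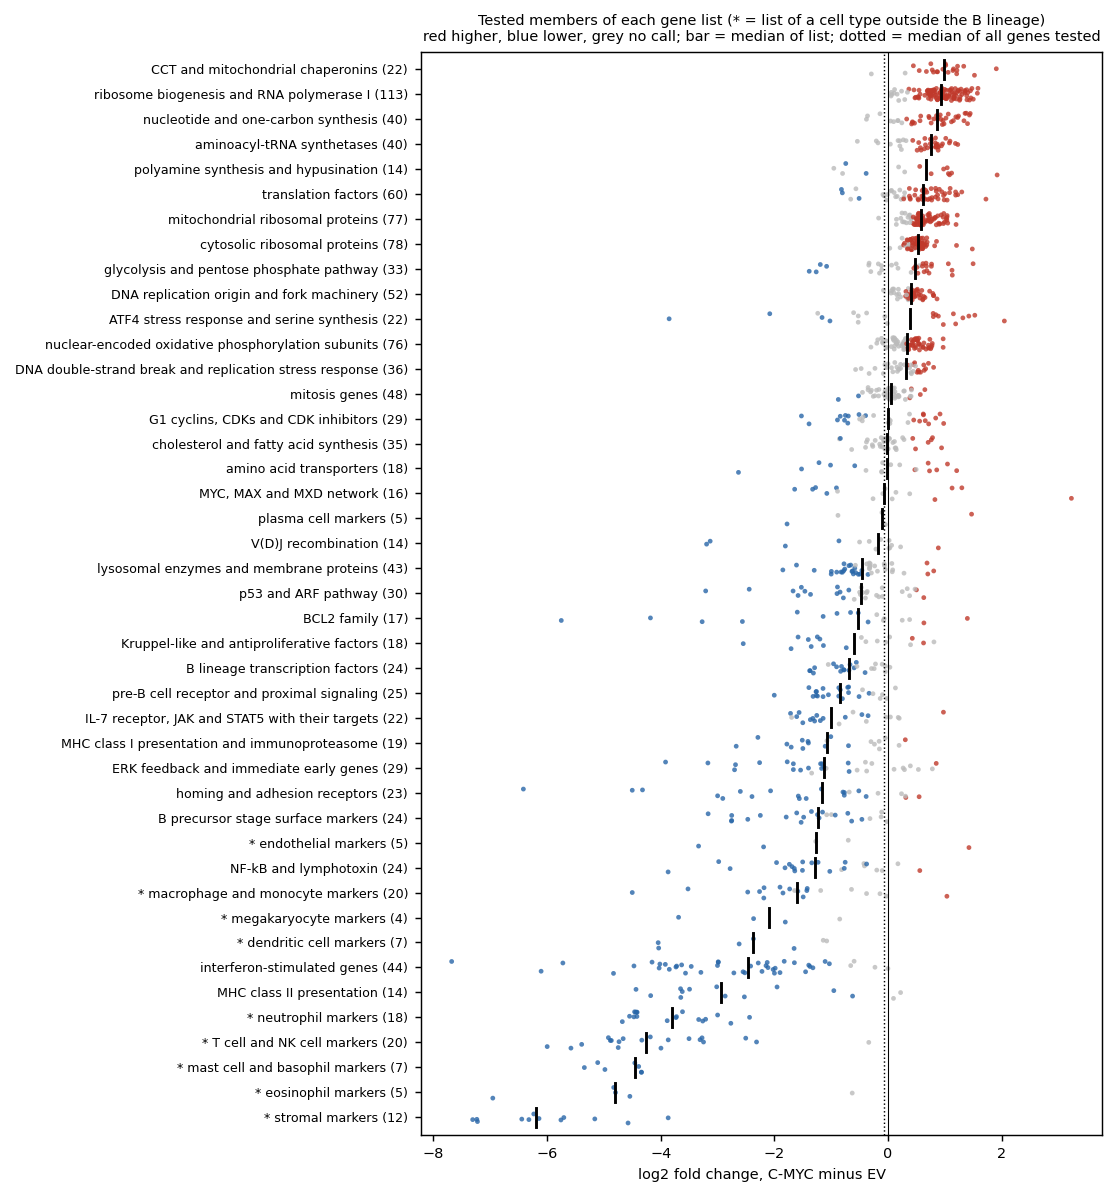
Log2 fold change of C-MYC minus EV (horizontal) for the tested members of each gene list (rows, ordered by median, number of tested members in brackets), with points in red for genes called higher, blue for lower and grey for no call, a bar at the median and a dotted line at the median of all genes. Lists of ribosome, translation, nucleotide and chaperonin genes lie right of 0 with medians up to 0.99, B lineage and signaling lists lie left of it, and lists of non-B cells, marked by a star, reach a median of -6.19.

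Genes of DNA replication rose while genes of mitosis mostly had no call. Of 52 genes for origins and forks, 36 rose and 0 fell (median 0.41), or 17 and 19 without C-MYC replicate 1 and 2. Orc1, the largest subunit of the origin recognition complex, rose from 31.6 and 26.2 to 51.4 and 53.4 CPM, and Pcna, the sliding clamp, rose from 523 and 512 to 659 and 722 CPM. Of 48 mitosis genes, 4 rose (8.33%, against 18.6% of all genes tested) and 2 fell (4.17%, against 24.5%). Their median was 0.05, with summed levels of 10080 and 11410 CPM in EV against 10940 and 10870 in C-MYC. Without EV replicate 2, 12 of them were called higher, and without C-MYC replicate 1 there were 2, while 7 were called lower without EV replicate 1. Ccnb1, cyclin B1, rose from 165 and 190 to 277 and 278 CPM, whereas Aurkb, the kinase of the chromosomal passenger complex, had 156 and 144 CPM in EV and 179 and 161 in C-MYC with no call. Among 29 regulators of G1, 9 rose (31%, against 18.6% of all genes tested) and 10 fell (34.5%, against 24.5%). Cdc25a, the phosphatase that activates CDK2, rose from 77.8 and 86.3 to 158 and 152 CPM. Ccnd3, the D cyclin of B cell precursors, fell from 1051 and 1148 to 708 and 586 CPM, and the CDK inhibitors Cdkn1b (p27) and Cdkn2d (p19) fell from 129 and 102 to 68.8 and 60.1 CPM and from 69.4 and 62.1 to 28.18 and 22 CPM.

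In the network around MYC, 4 of 16 genes, Myc itself included, were higher (25%, against 18.6% of all genes tested) and 5 were lower (31.2%, against 24.5%). Max, the partner of MYC, had 168 and 134 CPM in EV and 179 and 139 in C-MYC, with overlapping libraries and no call. The share of falls was near that of all genes, and the antagonists that also bind MAX were mixed. Mxd1 went from 71.4 and 35.9 to 17.9 and 16.4 CPM, Mxd4 from 48.4 and 57.6 to 19.9 and 22.4 CPM and Mxd3 from 27.44 and 30.97 to 12.4 and 11.8 CPM. Mxd1 had 27.1 and 24.3 CPM in BCR-ABL1, with no call between C-MYC and BCR-ABL1. The part of non-B cells in the fall of Mxd1 was not tested. Mxi1, a further antagonist that is named after its values were seen, rose from 34.6 and 34.7 to 67.0 and 55.8 CPM, and Mnt had no call, except without EV replicate 1 (0.89 on the log2 scale). Ruvbl1 and Ruvbl2, ATPases that act in chromatin complexes with MYC, rose by log2 fold changes of 1.13 (SE 0.15) and 1.299 (SE 0.15).

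Most genes of the B lineage lists were lower in C-MYC, by widely different amounts. The 4 lists of B lineage genes hold 87 different tested genes, of which 56 fell and 1 rose, or 42 and 48 fell without C-MYC replicate 2 and 1. The 10 defining markers summed to 5727 and 5225 CPM in EV, 3671 and 3158 in C-MYC and 5987 and 5448 in BCR-ABL1, so that all 6 libraries were rich in B cell precursor RNA. In bulk RNA, fewer cells of a type and less RNA of a gene per cell cannot be told apart. This holds for every fall given above, here and below.

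Of 24 B lineage transcription factors, 15 fell and 0 rose (median -0.68), or 6 without C-MYC replicate 2. Ebf1, which specifies the lineage, fell from 527 and 575 to 356 and 288 CPM, and it was at 620 and 564 in BCR-ABL1. Pax5, which holds cells in the lineage, had 136 and 210 CPM in EV and 105 and 91.6 in C-MYC, with a call (adjusted p = 0.0128, edgeR) that was lost without either C-MYC library. Spib, Bach2 and Pou2f2, factors of B cell differentiation, fell most, Spib from 576 and 612 to 258 and 202 CPM and Bach2 from 207 and 331 to 99.2 and 118 CPM, and Pou2f2 lost its call without C-MYC replicate 2. Ikzf1, which encodes IKAROS, had 464 and 404 CPM in EV and 404 and 328 in C-MYC with no call.

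Of 25 genes of the pre-B cell receptor and its first signaling steps, 19 fell and 0 rose (median -0.84). Cd79a, a signaling chain of the receptor, fell from 1322 and 1209 to 812 and 603 CPM, and Blk, a SRC family kinase of B cells, fell from 390.5 and 390 to 164 and 149 CPM (log2 fold change -1.32, SE 0.10, adjusted p = 0.000247). Blnk, the adaptor of SYK, fell from 810 and 646 to 508 and 391 CPM, with the call lost without C-MYC replicate 2. Igll1, part of the surrogate light chain, had 790 and 557 CPM in EV and 545 and 441 in C-MYC with no call in the main fit. Its log2 fold change was -0.45, or -0.68 without EV replicate 2, and calls in some other settings are given at the end. Bank1 and Rasgrp3, which act downstream of antigen receptors, fell by 1.39 and 2.00 on the log2 scale, from 20.0 and 9.07 to 4.46 and 2.78 CPM for Rasgrp3, whose call was lost without C-MYC replicate 2.

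Of 24 surface markers of B cell precursor stages, 18 fell and 0 rose (median -1.23). Il7r, the receptor chain for the cytokine in the medium, fell from 184 and 131 to 50.8 and 52.4 CPM, and BCR-ABL1 had a like level of 46.6 and 42.8 (no call between C-MYC and BCR-ABL1). Kit, the receptor of early progenitors that mast cells also carry, fell from 69.2 and 32.9 to 14.8 and 14.7 CPM. Cd2, an adhesion receptor that mouse B cells gain at the pre-B stage and T cells also express, had 19.7 and 23.2 CPM in EV, 2.34 and 2.43 in C-MYC and 79.7 and 62.6 in BCR-ABL1 (log2 fold change against EV -3.17, SE 0.20, adjusted p = 0.000175). Ly6d, a marker of B cell commitment, fell from 479 and 374 to 80.9 and 45.4 CPM, and Cd38, an ectoenzyme, fell from 21.5 and 32.7 to 3.95 and 4.09 CPM.

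Of 14 recombination genes, 4 were lower (28.6%, against 24.5% of all genes tested) and 1 was higher (7.14%, against 18.6%). The share of falls was thus near that of all genes, and single genes differed. Rag1 fell from 71.1 and 58.9 to 5.98 and 8.22 CPM (log2 fold change -3.19, SE 0.19, adjusted p = 0.000162), and Rag2 fell from 13.98 and 11.16 to 3.22 and 3.95 CPM. Polm, a polymerase that fills in V(D)J ends, fell from 19.6 and 21.5 to 2.53 and 2.16 CPM. Dntt, the terminal transferase of pro-B cells that adds bases to the same ends, had 382 and 440 CPM in EV and 412 and 418 in C-MYC, a log2 fold change of 0.02 (SE 0.10) without a call. Xrcc5, the Ku80 subunit, rose from 32.7 and 38.5 to 69.7 and 61.9 CPM.

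**Figure D3:**
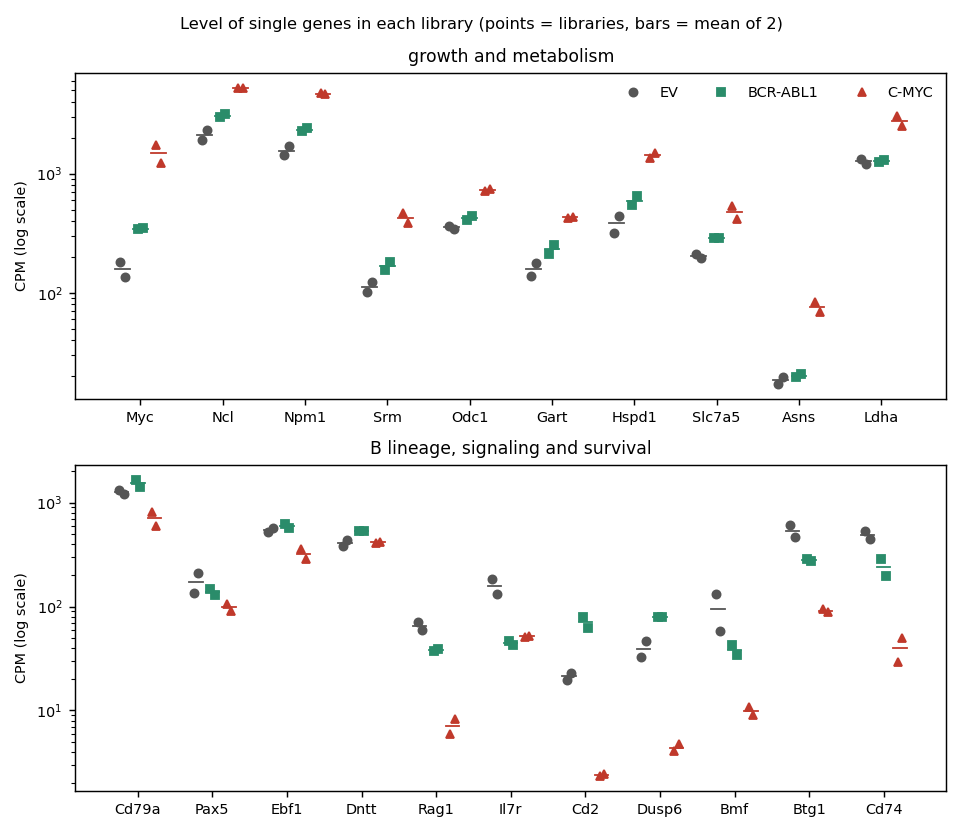
CPM on a log scale in each of the 6 libraries (points, EV grey circles, BCR-ABL1 green squares, C-MYC red triangles) with the mean of 2 libraries as a bar, for 10 genes of growth and metabolism (top) and 11 genes of the B lineage, signaling and survival (bottom). C-MYC lies above EV for every gene in the top panel, while in the bottom panel Dntt is level and Rag1, Cd2, Dusp6, Bmf, Btg1 and Cd74 show the widest falls.

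More genes of the IL-7 pathway fell than rose. With all libraries, 59.1% were lower and 4.55% higher, against 24.5% and 18.6% of all genes tested. Of 22 genes for the receptor, JAK, STAT5 and their targets, 13 fell and 1 rose (median -1.0), with 2 higher without EV replicate 1. Stat5a had 80.4 and 59.8 CPM in EV and 85.2 and 75.4 in C-MYC with no call, except without EV replicate 1 (0.43). Of the feedback targets, Socs3 fell from 34.9 and 50.03 to 15.9 and 12.8 CPM, while Cish had 50.5 and 98.98 CPM in EV, 62.9 and 51.9 in C-MYC and 233 and 212 in BCR-ABL1, with no call against EV except without EV replicate 1 (-0.78). Pim2, a survival kinase, fell from 60.2 and 43.1 to 16.9 and 14.5 CPM, whereas Pim3, its relative, rose from 27.5 and 26.8 to 54.01 and 52.8 CPM.

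Of 29 ERK feedback and immediate early genes, 16 fell and 1 rose (median -1.13), with 6 higher without EV replicate 1. With all libraries, the lower share was 55.2% here, 50% in the Kruppel-like list and 70.8% in the NF-kB list, against 24.5% of all genes tested. The higher share was 3.45%, 11.1% and 4.17%, against 18.6%. Dusp6, the phosphatase that ERK induces to limit itself, had 32.5 and 46.4 CPM in EV, 4.05 and 4.72 in C-MYC and 78.9 and 79.2 in BCR-ABL1 (log2 fold change against EV -3.17, SE 0.21, adjusted p = 0.000175, edgeR). Spry1, another ERK inhibitor, went the other way, from 4.72 and 5.10 to 10.3 and 7.45 CPM, with the call lost without C-MYC replicate 1. Among 18 Kruppel-like and antiproliferative factors, 9 fell and 2 rose, or 5 fell without C-MYC replicate 2 and 4 rose without EV replicate 1. Btg1, which restrains division and is often deleted in B cell leukemia, fell from 604 and 468 to 93.8 and 89.5 CPM (log2 fold change -2.55, SE 0.14, adjusted p = 0.000156), and Btg2 fell from 117 and 105 to 41.1 and 33.0 CPM. In the NF-kB list, 17 of 24 genes fell and 1 rose, or 11 fell without C-MYC replicate 2. Ltb, lymphotoxin beta, had 39.7 and 36.4 CPM in EV, 12.4 and 9.30 in C-MYC and 109 and 94.9 in BCR-ABL1, and Nfkbia, the inhibitor that NF-kB induces, fell from 80.3 and 64.0 to 30.6 and 30.9 CPM.

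Among survival and p53 genes, too, more fell than rose, as over all genes tested (24.5% lower, 18.6% higher). With all libraries, the lower share was 58.8% in the BCL2 family and 40% in the p53 and ARF list. The higher share was 11.8% and 6.67%. Of 17 BCL2 family genes, 10 fell and 2 rose, or 5 fell without C-MYC replicate 1. The fallers stand on both sides of cell death. Among protectors, Bcl2 fell from 64.60 and 64.58 to 28.1 and 30.5 CPM, and Bcl2l1, which encodes BCL-XL and is named here after its values were seen, fell from 133 and 206 to 29.97 and 27.44 CPM (log2 fold change -2.56, SE 0.24, adjusted p = 0.000365). Among killers, Bmf fell from 132 and 58.4 to 10.8 and 8.98 CPM. Bcl2a1a and Bcl2a1d, near-identical paralogs that granulocytes and T cells express, had 1.36 to 4.07 CPM in EV and at most 0.314 in C-MYC. Of 30 genes of the p53 and ARF pathway, 12 fell and 2 rose (median -0.48), or 7 fell without C-MYC replicate 1. Trp53 had 204 and 245 CPM in EV and 351 and 284 in C-MYC, with a call (adjusted p = 0.0211, edgeR) that was lost without C-MYC replicate 1 or EV replicate 1. Mdm2, a p53 target and its inhibitor, had 107 and 102 CPM in EV and 95.3 and 100.4 in C-MYC with no call. Cdkn2a, the locus of ARF and p16, fell from 47.2 and 37.9 to 22.7 and 23.2 CPM, and the counts do not separate its transcripts. Of 36 genes of the double-strand break and replication stress response, 12 rose and 0 fell, but only 2 and 3 rose without C-MYC replicate 1 and 2. With all libraries the share higher was 33.3%, against 18.6% of all genes tested. Parp1, a sensor of strand breaks, rose from 436 and 521 to 794 and 772 CPM.

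Cells outside the B lineage were followed through marker lists. Together these lists took 0.438% and 0.407% of the EV counts, 0.104% and 0.17% of the C-MYC counts and 0.0755% and 0.0793% of the BCR-ABL1 counts. Of 137 measured genes on them 99 passed the filter, many only through EV, so the number called is not evidence of its own and every list is given by its summed level over all measured members. Neutrophil markers summed to 1452 and 549 CPM in EV, 54.3 and 73.3 in C-MYC and 72.4 and 45.8 in BCR-ABL1, or 0.0638 times the EV level. S100a8, an alarmin of neutrophils, had 202 and 51.1 CPM in EV and 5.42 and 6.42 in C-MYC, and Elane, neutrophil elastase, had 3.74 and 1.42 against 0.276 and 0.225. All neutrophil markers had lower CPM in both C-MYC libraries, and EV replicate 1 held more of them than EV replicate 2.

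Stromal markers fell furthest, from sums of 219 and 350 CPM in EV to 4.87 and 6.78 in C-MYC, with 17.59 and 18.99 in BCR-ABL1. Col1a1, the main collagen of bone and fibroblasts, had 52.03 and 76.1 CPM in EV, 1.057 and 1.302 in C-MYC and 2.84 and 3.12 in BCR-ABL1, and C-MYC lay below BCR-ABL1 as well (log2 difference -1.33, SE 0.28, adjusted p = 0.0143). Cxcl12, the chemokine of marrow stroma, had no count in C-MYC, a level at least 6.03-fold lower than in EV, and Pdgfra had 0 and 1 counts. Markers of mast cells and basophils summed to 145 and 120 CPM in EV and to 2.90 and 7.14 in C-MYC. Mcpt8, the basophil protease, had 23.2 and 23.3 CPM in EV and 0.368 and 0.763 in C-MYC, and Cpa3, the mast cell carboxypeptidase, had 13.3 and 13.7 against 0.184 and 0.584. Eosinophil markers went from 73.5 and 31.9 to 6.48 and 8.94 CPM. Of this, Il5ra, a receptor chain that B cells can also carry, made up 5.29 and 6.83 in C-MYC and had no call in the main fit. Its log2 fold change was -0.63, or -0.69 without EV replicate 2, and calls in some other settings are given at the end. T cell and NK cell markers summed to 427 and 291 CPM in EV and 95.9 and 66.4 in C-MYC. Most of what remained was Thy1, with 94.8 and 67.6 CPM in EV and 81.1 and 47.2 in C-MYC and no call, whereas Cd3e, a chain of the T cell receptor complex, fell from 17.1 and 15.4 to 0.735 and 0.539 CPM. Dendritic cell, megakaryocyte and endothelial markers summed to at most 152 CPM in any EV library and at most 40.4 in any C-MYC library. Most of the endothelial sum was Pecam1, with 146.1 and 106.8 CPM in EV and 30.43 and 24.97 in C-MYC. Endothelial markers did not all fall. Egfl7 rose from 2.992 and 3.428 to 8.641 and 8.622 CPM (log2 fold change 1.424, SE 0.206, adjusted p = 0.00152, edgeR). Emcn, which did not pass the filter, had 0.2337 and 0.0836 CPM in EV and 0.4137 and 0.449 in C-MYC. The erythroid list was near 0 throughout, at most 1.75 CPM in any library.

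**Figure D4:**
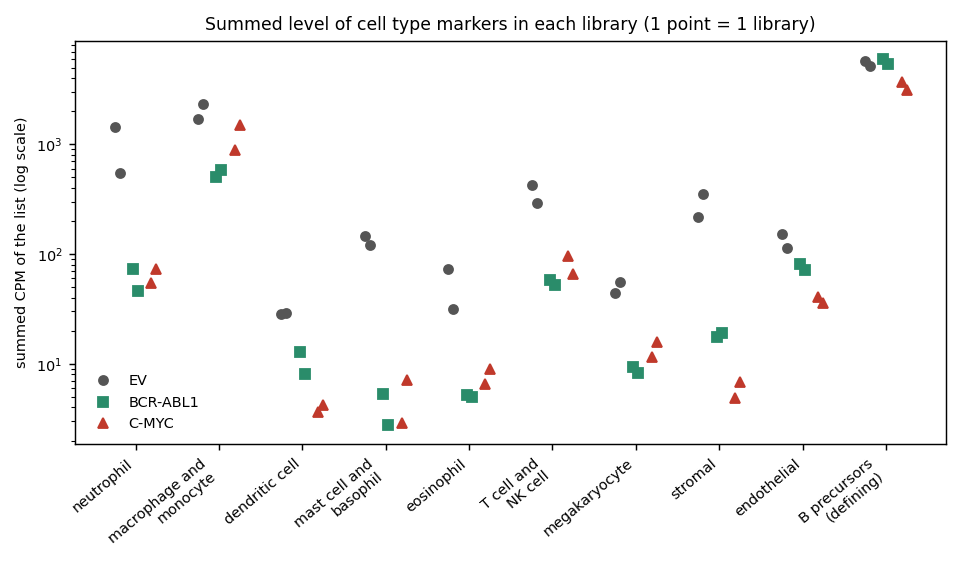
Summed CPM on a log scale of each marker list in each library, with EV as grey circles, BCR-ABL1 as green squares and C-MYC as red triangles. Most lists of non-B cells are far lower in C-MYC than in EV, and the macrophage list, here with Gpnmb, has 881 and 1510 CPM in C-MYC. The 10 defining genes of B cell precursors have 3671 and 3158 CPM in C-MYC, below the 5727 and 5225 of EV and the 5987 and 5448 of BCR-ABL1.

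Macrophage markers were summed both with and without Gpnmb, a choice made after the values were seen. With it, they summed to 1695 and 2316 CPM in EV, 881 and 1510 in C-MYC and 499 and 580 in BCR-ABL1, a ratio of the C-MYC to the EV mean of 0.596. Without it, the sums were 1457 and 1893 CPM in EV, 371 and 663 in C-MYC and 331 and 329 in BCR-ABL1, and the ratio was 0.309. Of the 20 members that passed the filter, 13 (65%, against 24.5% of all genes tested) were lower in C-MYC than in EV. In the comparison with BCR-ABL1, 13 of the 20 were higher in C-MYC, against 11.5% of all genes tested. As stated above, such counts on these lists are not evidence of their own. Gpnmb, a glycoprotein of lysosome-rich macrophages, made up the largest part in C-MYC, with 238 and 423 CPM in EV, 509 and 847 in C-MYC and 168 and 251 in BCR-ABL1. Its rise over EV was called (adjusted p = 0.0367, edgeR) but not without EV replicate 1, not without C-MYC replicate 2 and not by DESeq2. Lyz2, the lysozyme of macrophages and neutrophils, fell from 496 and 690 to 132 and 226 CPM. Csf1r, the receptor that macrophages need to survive, had 82.5 and 145 CPM in EV, 29.9 and 54.9 in C-MYC and 10.6 and 12.1 in BCR-ABL1, and C1qb, a complement subunit of macrophages, had 58.9 and 114, 16.7 and 31.3, and 4.98 and 8.06 in the same order. For both the fall against EV lost its call without C-MYC replicate 1. In EV, C-MYC and BCR-ABL1 alike, replicate 2 was above replicate 1 for these 4 genes. Ccr2, a chemokine receptor of monocytes, fell further, from 16.6 and 35.9 to 0.552 and 1.75 CPM, with 1.14 and 0.789 in BCR-ABL1. Cybb, a subunit of the phagocyte NADPH oxidase, fell from 251 and 166 to 32.5 and 42.8 CPM, below the 150 and 97.2 CPM of BCR-ABL1 (log2 fold change against BCR-ABL1 -1.71, adjusted p = 0.00501, edgeR). Ctsd, a lysosomal protease, had 344 and 601 CPM in EV and 361 and 628 in C-MYC, and the part of macrophage RNA in Ctsd, Ctsk and Hk3 was not tested.

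Presentation and interferon genes fell strongly and are expressed by B cells and by other cells of the marrow alike. Of 14 genes for MHC class II, 12 fell and 0 rose (median -2.94), and the list summed to 1344 and 1139 CPM in EV, 167 and 203 in C-MYC and 512 and 403 in BCR-ABL1. Its members behaved in different ways. H2-Aa, an antigen-binding chain, had 177 and 142 CPM in EV, 3.91 and 10.8 in C-MYC and 2.80 and 2.41 in BCR-ABL1, and so was low in both transformed groups, as were the other chain genes H2-Ab1 and H2-Eb1 and the class II activator Ciita. Cd74, the invariant chain, had 531 and 443 CPM in EV, 29.3 and 49.8 in C-MYC and 287 and 199 in BCR-ABL1, and C-MYC lay below BCR-ABL1 too (log2 difference -2.62, SE 0.27, adjusted p = 0.0013, edgeR). H2-DMa, a chain of the peptide editor, had 45.1 and 35.4, 3.31 and 3.82, and 14.1 and 10.4 CPM in the same order.

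Of 19 MHC class I genes, 11 fell (57.9%, against 24.5% of all genes tested) and 1 rose (5.26%, against 18.6%), with a median of -1.07. B2m, the light chain of every class I molecule, fell from 2654 and 1877 to 1214 and 892 CPM, H2-T23, which encodes the non-classical molecule Qa-1, fell from 222 and 130 to 23.8 and 31.3 CPM, and Psmb8, an immunoproteasome subunit, had 407 and 330 CPM in EV and 327 and 334 in C-MYC with no call. Of 44 interferon-stimulated genes, 40 fell and 0 rose (median -2.47). Irf7, which drives interferon alpha, had 12.7 and 8.95 CPM in EV, 0.506 and 0.808 in C-MYC and 2.80 and 3.20 in BCR-ABL1. The list summed to 4651 CPM in EV replicate 1 and 2430 in EV replicate 2. Without EV replicate 1 the median of the list was -2.16 and 40 genes were called lower. Of 23 homing and adhesion receptors, 17 fell (73.9%, against 24.5% of all genes tested) and 2 rose (8.7%, against 18.6%). Itgal, the LFA-1 chain, had 97.9 and 83.01 CPM in EV, 12.7 and 17.1 in C-MYC and 84.99 and 72.3 in BCR-ABL1. Cxcr4, the receptor for Cxcl12, fell from 358 and 255 to 199 and 161 CPM, with the call lost without C-MYC replicate 2.

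The direct comparison of C-MYC with BCR-ABL1 sets C-MYC against cells whose non-B marker lists were low as well, although it shares the C-MYC libraries with the comparison above. In it, 1468 genes (11.5%) were higher and 1523 (11.9%) lower in C-MYC. These counts rest on few libraries. Without BCR-ABL1 replicate 1 or 2 there were 176 and 470 higher and 442 and 660 lower genes, and without C-MYC replicate 1 or 2 there were 590 and 484 higher and 701 and 554 lower genes. Ribosome biogenesis genes were higher in 93 of 113 cases with 0 lower (median 0.67), and the chaperonin list in 18 of 22, while cytosolic ribosomal proteins were higher in 10 of 78 (median 0.22). Of the B lineage lists, 6 of 24 transcription factors, 17 of 25 pre-B cell receptor genes, 13 of 24 surface markers and 4 of 14 recombination genes were lower in C-MYC than in BCR-ABL1. Rag1 was at 37.3 and 38.9 CPM in BCR-ABL1, with a log2 difference of C-MYC minus BCR-ABL1 of -2.42 (SE 0.19, adjusted p = 0.000521, edgeR), and Cd2 and Dusp6 gave -4.90 and -4.17 in the same direction. Among non-B members that passed the filter, many only through EV, stromal markers were lower in 5 of 12 and macrophage markers higher in 13 of 20. These counts on the non-B lists are not evidence of their own. Interferon-stimulated genes were lower in 22 of 44.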

How the data were processed

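RNA was sequenced as poly(A) libraries from each culture. The authors aligned reads with STAR 2.5.0 and deposited raw counts per gene symbol, with UCSC known genes on GRCm38. The counting program and its use of strand are not given in the sources used here, and the deposited FPKM values were not used. From the counts, edgeR 4.0.16 (R 4.3.3) fitted all 6 libraries of 3 conditions without covariates, after filterByExpr and TMM scaling. Quasi-likelihood tests were adjusted by the Benjamini-Hochberg method over the 12786 genes, at a threshold of 0.05. The script was tested on simulated data. DESeq2 1.42.0 was an alternative.

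Named genes were Myc, the leading members of each of the 44 lists, up to 3 members per list and direction with the largest called change, and the 12 largest rises and falls with at least 50 counts on average. Bcl2l1, Mxi1, Il5ra, Thy1, H2-Ab1 and H2-DMa were added after their values were seen. The members and lists were chosen with earlier results of these data known. Totals of 20687092 to 24095955 counts limit genes below about 3 counts per library. ChIP-seq samples were not analysed here, and some genes are not reported here.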

Additional observations from a re-analysis of the deposited data

How the results depend on the processing

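Against a fold of 1.5, glmTreat left 677 higher and 1595 lower genes against EV and 278 and 480 against BCR-ABL1, so that 29.8% of its calls against EV were higher. With only the samples of the conditions compared, 2271 genes were higher against BCR-ABL1. Without 1 library, counts against EV ranged from 1431 to 2701 higher and 1898 to 3376 lower, and against BCR-ABL1 from 176 to 590 and 442 to 701. The cause was not tested. Other scalings, filters and DESeq2 kept the counts within 1.5 times, and Myc kept its call in all of these settings (2.96 to 3.46). As a replicate block, the replicate number gave 2918 higher and 3713 lower genes against EV and 2110 and 2168 against BCR-ABL1. The block added calls against EV for Igll1 (adjusted p = 0.00635, edgeR), Ikzf1 (0.0337), Il5ra (0.0352) and Thy1 (0.0463). Igll1 was also called with no filter (adjusted p = 0.0341, edgeR) and Il5ra with a mean of at least 50 counts (0.0468). Labels share only this number, and the deviations of same-numbered libraries correlated with r = 0.217 for EV and C-MYC, 0.254 for EV and BCR-ABL1 and 0.184 for BCR-ABL1 and C-MYC.

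Of the named genes, those that changed sign had no call. Dntt was at -0.02 with a mean of at least 50 counts. Without 1 library, log2 fold changes ranged from -0.26 to 0.19 for Atf4, -0.78 to 0.19 for Cish, -0.38 to 0.53 for Ctsd, -0.08 to 0.12 for Dntt, -0.12 to 0.25 for Max, -0.3 to 0 for Psmb8 and -0.77 to 0 for Thy1.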
